A study of Mus musculus with 7 samples.

Results

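The genes described here are 10 members of the insulin and insulin-like growth factor (IGF) pathway in pancreatic islets: the ligand gene Igf1, the receptor genes Igf1r and Insr, the receptor substrate genes Irs1 and Irs2, and the binding protein genes Igfbp2, Igfbp3, Igfbp4, Igfbp5 and Igfbp7. They were taken by symbol from the platform annotation, with the brightest probe set of a gene where there were several, and all 10 were measured among 22180 genes tested. The arrays labelled Gata6 KO (4 arrays) carried islet RNA of Gata6 flox/flox mice with a Pdx1-Cre transgene, which recombines in the pancreatic epithelium and so in endocrine, duct and acinar cells alike but not in vessel, connective tissue or blood cells. The control arrays (3 arrays) carried islet RNA of Gata6 flox/flox mice that lacked the transgene, so that Cre itself and the loss of Gata6 cannot be told apart. An array stood for a pool of islets of 3 mice aged 2 months, freed with collagenase, so error here means the spread between pools. Values are log2 signals after robust multiarray averaging (RMA), and the number of arrays limits their precision.

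Insulin and IGF1 bind related receptor tyrosine kinases at the cell surface, which phosphorylate the substrate proteins IRS1 and IRS2 and so switch on the PI3 kinase and Akt branch and the Ras and MAP kinase branch. Binding proteins hold IGF1 and IGF2 outside the cell and lengthen or limit their action, and proteases set the ligands free again. In mouse beta cells Irs2 is known as the substrate needed for cell survival and for growth in response to insulin resistance, and mice without it become diabetic.

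Igf1 and Igfbp4 rose on the arrays labelled Gata6 KO, while Irs2, Igfbp7 and Igf1r fell. The other 5 members, Insr, Irs1, Igfbp2, Igfbp3 and Igfbp5, did not pass the test, which was limma's moderated test over all genes with a Benjamini-Hochberg adjusted p under 0.05 (called, below). The 5 called members were 50.0% of the 10, where 24.7% of all genes were called. With the 40% of genes of lowest mean left out, 4905 genes were called, against 5486 of all genes. The share called was thus higher among brighter genes, which include all 10 members. The 50.0% against 24.7% is therefore not a comparison at like signal, and no excess is read from it. Higher calls made up 2 of 10 members against 17.4% of all genes, and lower calls 3 of 10 against 7.36%. The values of the groups did not overlap for 6 members, as for 34.3% of all genes. Since all genes together stood 0.17 higher on the log2 scale on the arrays labelled Gata6 KO, changes are given below minus this median shift, with the SE and the adjusted p of the unshifted difference. This scaling bears on direction over the whole table, where 70.2% of called genes were higher as deposited, against 38.1% after centring each array and 41.1% after a repeated quantile normalization. The 5 called members kept their direction and their call under both scalings. The median change of the 10 members was -0.40, and the middle 50% of all genes lay between -0.31 and 0.33.

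**Figure D1:**
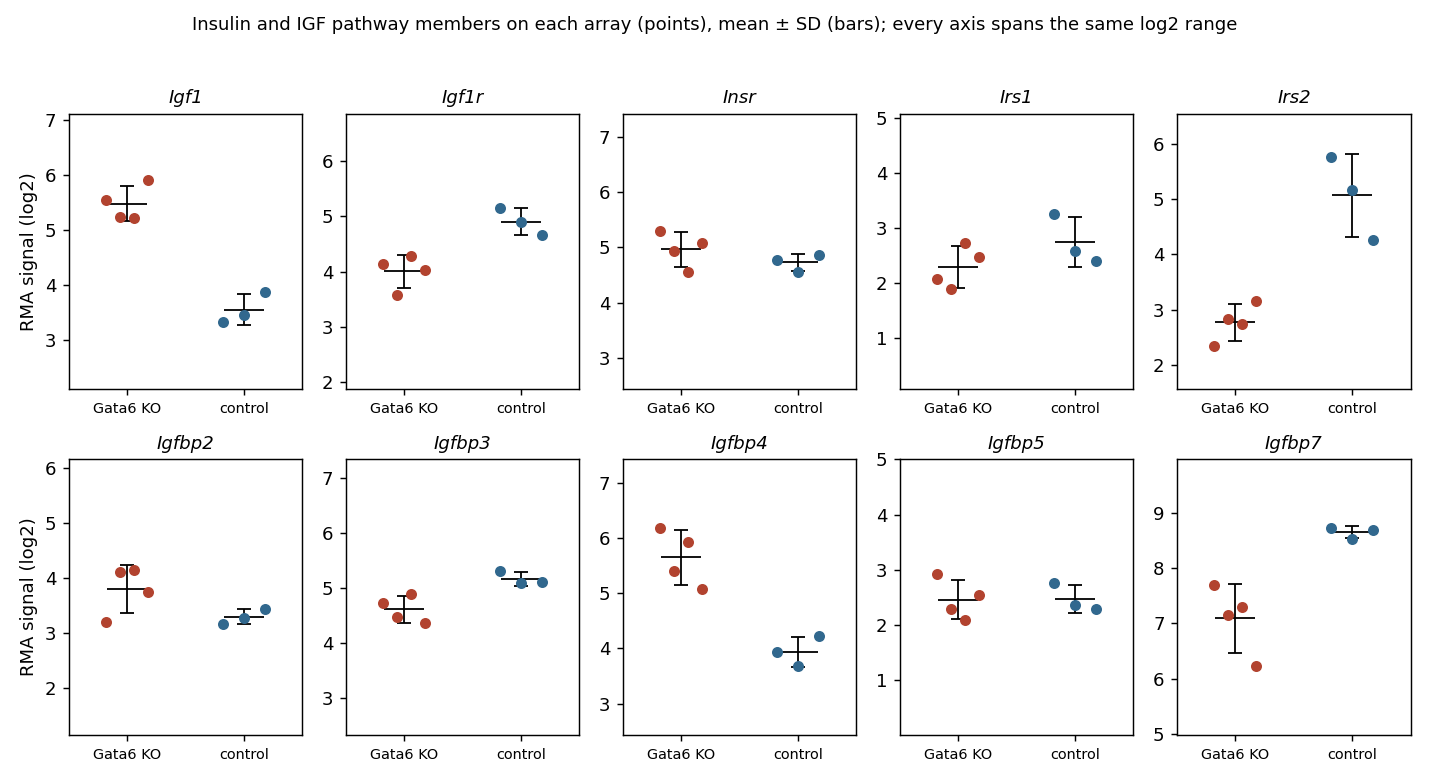
RMA signal (log2, vertical axis) of the 10 members on each array, with arrays labelled Gata6 KO in red (n = 4) and control arrays in blue (n = 3), and black bars for mean ± SD. Each panel spans the same log2 range. The groups stand apart for Igf1, Igf1r, Irs2, Igfbp3, Igfbp4 and Igfbp7 and overlap in the other panels.

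Before the members, the labels and the tissue were checked. Gata6, the targeted transcription factor gene, gave log2 signals of 5.41, 5.35, 5.34 and 5.01 on the arrays labelled Gata6 KO, against 4.60, 4.80 and 4.83 on control arrays (adjusted p = 0.0622, limma). It was thus not lower where the label says knockout, and the sources do not say whether the probes lie in the deleted exons. A probe set outside them would check nothing. Directions follow the labels throughout. Of the islet markers, 10 of 10 beta-cell genes were lower in the group labelled Gata6 KO, and their mean signal was 5.37 to 6.99 there and 8.51 to 9.07 on control arrays. The other islet types fell too, with 4 of 4 alpha-cell markers lower (means 5.23 to 6.59 and 7.73 to 8.003) and 4 of 5 delta- and PP-cell markers lower (5.10 to 7.13 and 8.31 to 8.79). Exocrine RNA was present on every array, with a mean of 11 acinar markers of 11.11 to 11.18 on the arrays labelled Gata6 KO and 10.25 to 10.31 on control arrays, and 5 of those 11 genes were higher. Of the ductal markers 2 of 6 were higher and 1 lower (4.68 to 5.09 and 4.23 to 4.69, which overlap). Of the stellate and mesenchymal markers 8 of 14 were higher and 0 lower, with means of 3.62 to 5.23 and 3.24 to 3.92, which overlap, and after centring 5 of the 14 were higher. Of the endothelial markers 2 of 12 were higher and 4 lower (3.58 to 4.07 and 4.00 to 4.35, which overlap), and of the macrophage markers 5 of 11 were higher (2.88 to 4.00 and 2.52 to 2.76), though the macrophage genes Adgre1 and Itgam stayed under a log2 signal of 3 on every array. T- and B-cell markers (4 of 8 higher, means 2.59 to 3.39 and 1.79 to 1.90) and adipocyte markers (2 of 6 higher, 1 after centring, means 2.14 to 2.49 and 1.78 to 1.87) were also higher without overlap, at low signals, and 4 genes of each of these lists stayed under 3 on every array. The array labelled Gata6 KO 3 and control array 3 had low Xist, the X-inactivation RNA of female cells (2.15 and 1.34, against 5.02 to 5.60 on the other arrays), and the same 5 members were called on the arrays with high Xist alone. In bulk islets, fewer cells of a type and less RNA per cell cannot be told apart.

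Igf1 (chr10:87858265-87937047, GRCm38.p6), the gene of the secreted ligand of the IGF1 receptor, was 3.38-fold higher on the arrays labelled Gata6 KO relative to all genes. Its log2 signals were 5.55, 5.24, 5.23 and 5.90 on those arrays, against 3.33, 3.47 and 3.87 on control arrays. All values labelled Gata6 KO lay above all control values, with the lowest and the highest neighbours more than a log2 unit apart. The change was 1.76 with an SE of 0.23 (adjusted p = 6.30e-05, limma), and no alternative ended the call. Igf1 is made in connective tissue cells and macrophages of many organs, and the macrophage marker means did not overlap between the groups. The macrophage mean was highest on the array labelled Gata6 KO 1 (4.00) and lowest of that group on array 4 (2.88), while Igf1 was highest on array 4. The stellate and mesenchymal mean was likewise highest on array 1 (5.23) and lowest on array 4 (3.62). The acinar mean was highest on array 4 (11.18) and next on array 1 (11.16), as was Igf1. Acinar means on arrays 2 and 3 were 11.11 and 11.12, so all of these lie close together. The beta-cell, alpha-cell, and delta- and PP-cell means were also highest of that group on array 4 (6.99, 6.59 and 7.13). The part of macrophage, mesenchymal or acinar RNA in the Igf1 result was not tested.

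The promoter of Igf1 is shown because it was the only one of the 10 promoter windows listed for the members that held a GATA motif, the letters bound by GATA factors (AGATAA or AGATAG or TGATAA or TGATAG, on either strand). Such a motif occurs in 29.8% of all 32851 mouse promoter windows of this length, and forkhead motifs (GTAAACA or ATAAACA, on either strand) in 8.0% of them and in 0 of the 10. The windows run from 250 bases before to 50 bases after an annotated start and cover 9 of the 10 members, Igfbp2 with 2 starts. In Igf1, on the plus strand of chr10:87860861-87861160 (GRCm38.p6, RefSeq), the capitals mark 2 overlapping AGATAG motifs that begin 14 and 10 bases before the start. This window lies inside the Igf1 span printed above, as the Igfbp3 and Igfbp4 windows lie inside their genes. Its start is thus not the first base of the gene, where no window was listed or searched. A match of letters is not a bound site.
Igf1: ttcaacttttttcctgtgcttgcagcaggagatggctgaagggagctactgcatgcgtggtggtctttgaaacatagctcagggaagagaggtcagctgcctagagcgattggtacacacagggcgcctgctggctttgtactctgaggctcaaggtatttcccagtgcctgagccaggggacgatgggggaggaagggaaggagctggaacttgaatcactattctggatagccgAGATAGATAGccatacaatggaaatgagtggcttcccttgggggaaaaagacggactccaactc

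The receptors differed in what was measured. Igf1r (chr7:67952257-68233668), the IGF1 receptor gene, had log2 signals of 4.14, 3.57, 4.27 and 4.03 on the arrays labelled Gata6 KO, against 5.16, 4.90 and 4.66 on control arrays. The groups were apart, and the array labelled Gata6 KO 2 was the lowest. The gene fell by 1.07 (SE 0.23, adjusted p = 0.0105, limma), a level 2.10-fold lower than on control arrays relative to all genes. This call was the weakest of the 5: without control array 1, which had the highest value, the adjusted p was 0.0655. Insr, the insulin receptor, had 5.30, 4.93, 4.56 and 5.07 on the arrays labelled Gata6 KO, against 4.77, 4.56 and 4.87 on control arrays. These values overlap at both ends. The change was 0.07 with a 95% interval from -0.40 to 0.54 (adjusted p = 0.468, limma), so a change of Insr as large as that of Igf1r lies outside the interval. Within an array, the log2 signal of Igf1r minus that of Insr was -0.96 ± 0.47 (SD, n = 4) for the label Gata6 KO and 0.17 ± 0.33 (SD, n = 3) for control, a quantity that centring an array leaves as it is. The groups of ratios did not overlap, but the arrays labelled Gata6 KO 3 (-0.28) and control 3 (-0.21) came close, and the ratio was not tested.

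Irs2 (chr8:10984681-11008929), the substrate gene that mouse beta cells depend on, had the largest measured change among the 10 members, at signals too low to rank sizes. Its log2 signals were 2.34, 2.83, 2.74 and 3.15 on the arrays labelled Gata6 KO, against 5.78, 5.17 and 4.27 on control arrays. The groups were apart by more than a log2 unit even though the control pools varied widely. Irs2 fell by 2.47 (SE 0.31, adjusted p = 1.60e-04, limma), 5.55-fold relative to all genes. The medians of all probe sets on the arrays labelled Gata6 KO were 1.89 to 2.11, so Irs2 there was a low signal, at which RMA compresses differences. Irs1, the other main substrate, had 2.07, 1.89, 2.73 and 2.47 on the arrays labelled Gata6 KO, against 3.26, 2.58 and 2.40 on control arrays. These low signals overlap, the change was -0.62 with an interval from -1.20 to -0.05 around the shifted value, and the unshifted difference was not called (adjusted p = 0.233, limma). A further Irs1 probe set stayed between 0.89 and 1.34 on all arrays. Within an array, Irs2 minus Irs1 was 0.48 ± 0.41 (SD, n = 4) for the label Gata6 KO and 2.33 ± 0.40 (SD, n = 3) for control. This pair was set side by side after its values were seen, so its ratio is given without a test. The beta-cell marker mean, which fell on the same arrays, was lowest on the array labelled Gata6 KO 3 (5.37), whereas Irs2 was lowest on array 1. Both were highest of that group on array 4 (6.99 and 3.15). On control arrays 1 to 3 the beta-cell mean was 9.07, 8.63 and 8.51, in the same order as Irs2. The alpha-cell mean (8.003, 7.85 and 7.73) and the delta- and PP-cell mean (8.79, 8.49 and 8.31) had this order too. Among the arrays labelled Gata6 KO, these means were also highest on array 4 (6.59 and 7.13) and lowest on array 3. These orders are thus not particular to beta cells. Among the arrays labelled Gata6 KO, Igf1r was highest on array 3 (4.27), where the beta-cell mean was lowest. Igf1r was lowest on array 2 (3.57), where the beta-cell mean was 6.89. On control arrays 1 to 3 Igf1r (5.16, 4.90 and 4.66) had the same order as the beta-cell, alpha-cell, and delta- and PP-cell means. The part of a lower share of beta-cell or other islet-cell RNA in the Irs2 and Igf1r results was not tested.

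The promoters of Irs1 and Irs2 are shown because the 2 genes share 2 overlapping stretches of 10 bases just upstream of their starts, while of the pair only Irs2 was called on these arrays. The stretch gtcacgtgtt begins 117 bases before the Irs1 start and 46 bases before the Irs2 start, and the stretch tgttttgctc begins 111 and 37 bases before them. Each occurs, on either strand, in 25 of 32851 promoter windows (0.076%). Both were picked as the longest stretches that these 2 promoters share, so their rarity follows from the choice and tests nothing. The first contains the E-box CACGTG, marked in capitals, a motif bound by factors of the basic helix-loop-helix class, which occurs in 7.2% of all windows and in 3 of the members' 10. The E-box was searched for after the sequences were seen. Both windows lie on the minus strand, Irs1 at chr1:82291390-82291689 and Irs2 at chr8:11008880-11009179 (GRCm38.p6, RefSeq).
Irs1: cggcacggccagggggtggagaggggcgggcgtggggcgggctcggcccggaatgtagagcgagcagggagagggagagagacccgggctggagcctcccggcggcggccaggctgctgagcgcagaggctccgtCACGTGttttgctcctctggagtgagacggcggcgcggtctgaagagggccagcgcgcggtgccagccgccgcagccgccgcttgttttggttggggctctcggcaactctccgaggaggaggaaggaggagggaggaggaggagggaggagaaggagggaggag
Irs2: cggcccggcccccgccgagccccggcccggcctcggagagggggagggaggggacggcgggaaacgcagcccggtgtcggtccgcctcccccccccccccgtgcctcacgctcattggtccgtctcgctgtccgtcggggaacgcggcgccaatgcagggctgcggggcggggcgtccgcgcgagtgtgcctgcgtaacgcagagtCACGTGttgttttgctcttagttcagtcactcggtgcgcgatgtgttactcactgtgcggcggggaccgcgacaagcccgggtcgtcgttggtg

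**Figure D2:**
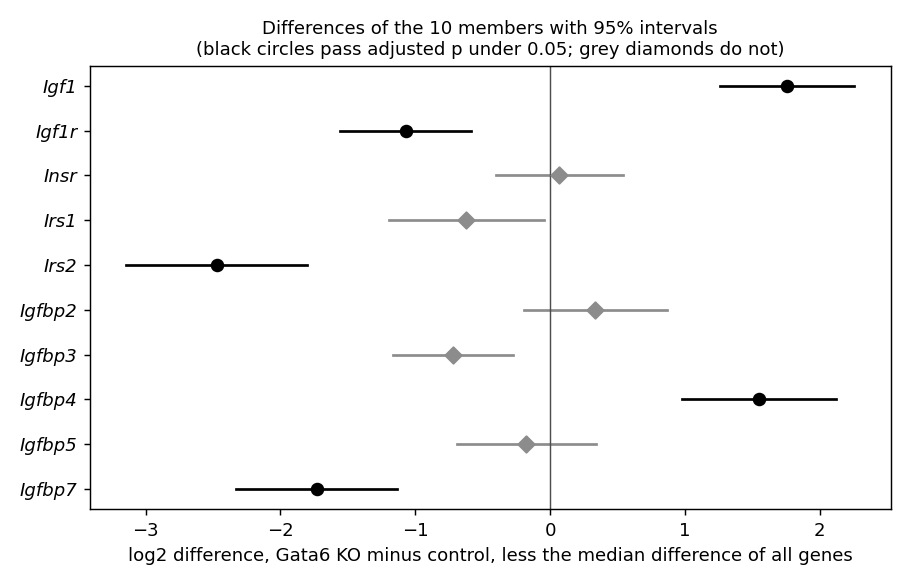
Change of each member on the arrays labelled Gata6 KO relative to control arrays (log2 difference minus the median of all genes, horizontal axis), with 95% intervals from limma's moderated SE. Black circles mark the 5 called members, from Irs2 at -2.47 to Igf1 at 1.76, and grey diamonds those not called.

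Among the binding protein genes Igfbp4 rose, Igfbp7 fell and the other 3 were not called. Igfbp4 (chr11:99040005-99052655), whose product binds IGFs and mostly restrains them until it is cut by the protease PAPP-A, had log2 signals of 6.19, 5.41, 5.94 and 5.09 on the arrays labelled Gata6 KO, against 3.93, 3.68 and 4.22 on control arrays. The lowest of the first group still lay above the highest control. The change was 1.55 (SE 0.27, adjusted p = 4.65e-04, limma), 2.92-fold relative to all genes. Igfbp7 (chr5:77349240-77408045), the gene of a secreted protein that binds IGFs weakly and is abundant in blood vessels, had 7.69, 7.16, 7.29 and 6.22 on the arrays labelled Gata6 KO, against 8.73, 8.54 and 8.70 on control arrays. The control pools were tightly grouped, and array 4 of those labelled Gata6 KO was lower than the rest. The gene fell by 1.73 (SE 0.28, adjusted p = 0.00124, limma), 3.32-fold relative to all genes. The log2 signal of Igfbp4 minus that of Igfbp7 within an array was -1.43 ± 0.26 (SD, n = 4) for the label Gata6 KO and -4.71 ± 0.21 (SD, n = 3) for control. These ratios lay far apart, and they too were set side by side after the values were seen and were not tested.

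On the arrays labelled Gata6 KO, Igfbp4 and Igfbp7 were both highest on array 1 and lowest on array 4. The stellate and mesenchymal marker mean (5.23 and 3.62) and the endothelial marker mean (4.07 and 3.58) were also highest on array 1 and lowest on array 4. So were the macrophage mean (4.00 and 2.88) and the ductal mean (5.09 and 4.68), so this order is not particular to 1 cell type. Between the groups the mesenchymal and endothelial means overlapped, with 8 of 14 mesenchymal markers higher and none lower, and with 2 of 12 endothelial markers higher and 4 lower. The part of these cell types in the results for Igfbp4 and Igfbp7 was not tested.

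Igfbp3, the main IGF carrier of blood, had 4.72, 4.47, 4.90 and 4.37 on the arrays labelled Gata6 KO, against 5.31, 5.09 and 5.11 on control arrays. Its groups did not overlap, yet the change of -0.72 (SE 0.21) missed the threshold as deposited (adjusted p = 0.0639, limma). It passed after centring (adjusted p = 0.0244), after a repeated quantile normalization (adjusted p = 0.0193), with array quality weights (adjusted p = 0.0375) and when array 3 of those labelled Gata6 KO was left out (adjusted p = 0.0385). Igfbp2, a carrier made in many epithelia, had 3.20, 4.10, 4.14 and 3.75 on the arrays labelled Gata6 KO, against 3.17, 3.28 and 3.44 on control arrays. Only array 1 of those labelled Gata6 KO lay within the control range. The change was 0.34 with an interval from -0.19 to 0.87 (adjusted p = 0.155, limma), and without that array the adjusted p was 0.0345. Igfbp5, a carrier held in the matrix, had 2.92, 2.29, 2.09 and 2.53 on the arrays labelled Gata6 KO, against 2.75, 2.37 and 2.28 on control arrays. Its signals were low and fully mixed between the groups, with a change of -0.18 and an interval from -0.69 to 0.34 (adjusted p = 0.981, limma). Igfbp2 and Igfbp5 are neighbours on mouse chromosome 1 (72824480 to 72852474 and 72858065 to 72874865, GRCm38.p6).

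The rest of the pathway was read from 7 lists of other genes, 88 of whose 102 genes were measured. Of these 12 were called higher and 23 lower, 39.8% in all, against the 24.7% of all genes. The share called among brighter genes is higher than 24.7%, as given above. The 39.8% is therefore not read as an excess in these lists. Among 13 further ligands, receptors, carriers and proteases 2 were higher and 4 lower, with a median change of 0.02. Pappa2, a protease that cuts IGF binding proteins, fell by 3.47 (SE 0.31, adjusted p = 9.03e-06), to 2.51 ± 0.69 (SD, n = 4) with the label Gata6 KO, against 5.81 ± 0.13 (SD, n = 3) on control arrays. Insrr, a receptor related to the insulin receptor that senses alkaline pH, fell by 3.05 (SE 0.30), with 2.93 ± 0.56 (SD, n = 4) and 5.81 ± 0.47 (SD, n = 3). Igfals, the acid-labile subunit that joins IGF and IGFBP3 in blood, fell by 1.64 (SE 0.32), and Igfbp6, a carrier with a preference for IGF2, rose by 0.70 (SE 0.20), both at low signals. Pappa2 and Insrr, like Irs2, reached low signals in the group labelled Gata6 KO, at which sizes cannot be ranked.

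Of 26 adaptor, PI3 kinase, Akt and mTOR genes 5 were higher and 3 lower (median -0.09), a split that turned to 1 higher and 5 lower after centring. The 30.8% called was near the 24.7% of all genes, as was the 33.3% of the Ras and MAP kinase list below. The other lists had 41.7% to 50.0% called, among 6 to 13 genes each, too few to read a result from a share. Eif4ebp1, the translation repressor that mTOR complex 1 inactivates, rose by 1.08 (SE 0.20), and Rheb, the GTPase that activates this complex, rose by 0.76 (SE 0.23), a call lost after centring (adjusted p = 0.0821). Pik3r3, a regulatory subunit of PI3 kinase, fell by 1.72 (SE 0.27), with a mean of 1.60 ± 0.23 (SD, n = 4) in the group labelled Gata6 KO that lies below those arrays' medians of all probe sets, so the size of the fall is not well measured. Foxo1, the transcription factor that Akt keeps out of the nucleus, fell by 1.49 (SE 0.31), but with the mean of all its probe sets the log2 difference was -0.30 and was not called. Of 12 inhibitors of the pathway 1 was higher and 4 lower (median -0.12). The lower ones were Grb14, an adaptor that blocks the insulin receptor kinase, at -1.22 (SE 0.22), the phosphatase gene Ptprf at -1.41 (SE 0.27), the ubiquitin ligase gene Cblb at -1.19 (SE 0.24) and the feedback inhibitor gene Socs3 at -1.33 (SE 0.21). The probe sets of Socs3 also disagreed, and their mean gave a log2 difference of -0.31 that was not called. Of 9 Ras and MAP kinase genes 0 were higher and 3 lower (median -0.48), with Braf at -1.82 (SE 0.28) and the transcription factor Elk1 at -1.38 (SE 0.22).

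**Figure D3:**
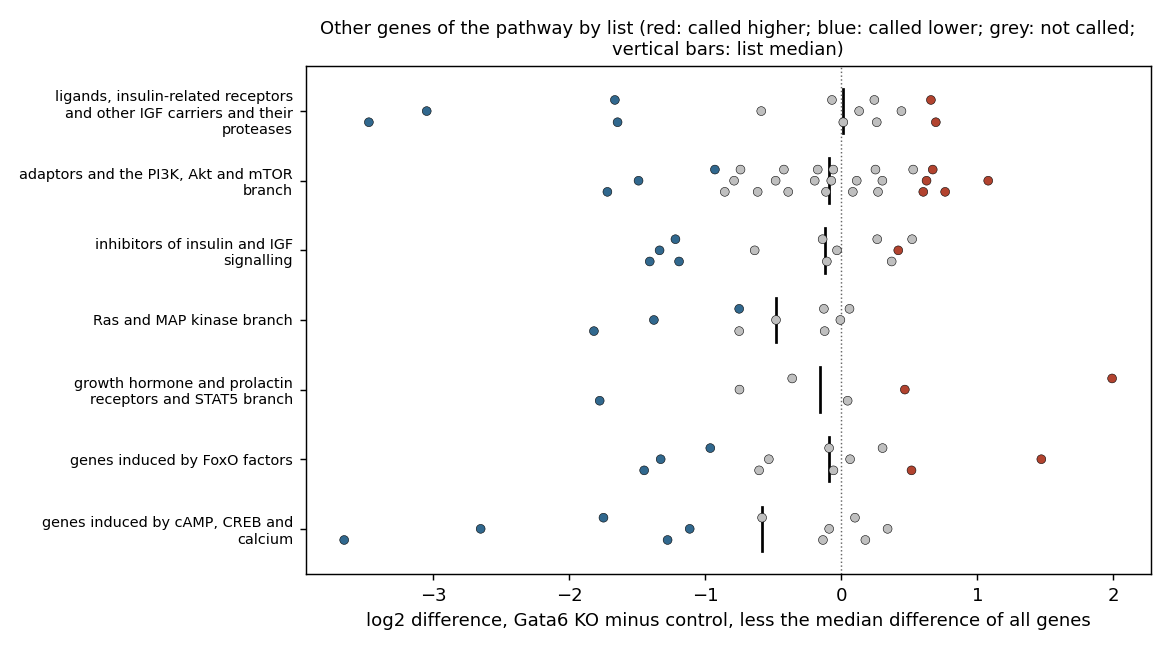
Other genes of the pathway in 7 lists (rows), each point a gene at its log2 difference, Gata6 KO minus control, less the median of all genes (horizontal axis). Red points were called higher, blue points lower and grey points not called, and vertical bars are list medians, the lowest being -0.58 in the cAMP, CREB and calcium list.

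Upstream and downstream lists gave the following. Of 6 genes of the growth hormone and prolactin receptor branch, which drives Igf1 in liver, 2 were higher and 1 lower (median -0.16), a split that turned to 1 higher and 2 lower after centring. Stat5b, the transcription factor of this branch, fell by 1.77 (SE 0.23), and Socs2, a feedback inhibitor of it, rose by 1.99 (SE 0.33). Of 11 genes that FoxO factors induce 2 were higher and 3 lower (median -0.09), with 1 higher after centring and 1 lower without control array 1. Among them were Pdk4, which restrains pyruvate oxidation, at 1.47 (SE 0.39), and the coactivator gene Cited2 at -1.45 (SE 0.25). Of 11 genes induced by cAMP, CREB and calcium, a class to which Irs2 also belongs in beta cells, 0 were higher and 5 lower (median -0.58). The changes were -3.65 (SE 0.27) for Fos, -2.65 (SE 0.53) for Fosb, -1.75 (SE 0.26) for the phosphatase gene Dusp1 and -1.28 (SE 0.24) for the nuclear receptor gene Nr4a1. The 6 genes of this list that were not called were Junb (-0.58), Nr4a2 (-0.13), Crem (-0.09), Sik1 (0.10), Nr4a3 (0.18) and Ppargc1a (0.34). Crem, Nr4a3 and Ppargc1a had low signals. The spread of Fosb over the control arrays was wide (SD 1.70, n = 3), and without control array 1 its log2 difference before the shift was subtracted was -1.51, against -2.48 with all arrays. Glp1r, the receptor that raises cAMP in beta cells, measured 8.97 ± 0.52 (SD, n = 4) in the group labelled Gata6 KO and 11.55 ± 0.16 (SD, n = 3) on control arrays. It is also 1 of the 10 beta-cell markers, all of which were lower. The part of cAMP signalling or of beta-cell RNA in the results for Irs2 and this list was not tested.

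To place each called member among all genes, the pattern over the 7 arrays was compared with that of 10590 genes at or above the median signal, as the root mean square difference of the log2 deviations from each gene's own mean. These likenesses are descriptions that share the group difference and the arrays. Nearest to Igf1 were Ggh, a folate polyglutamate hydrolase (0.14), and Serpinb1a, a protease inhibitor (0.17). Nearest to Irs2 were Slc18a1, a vesicular monoamine transporter (0.16), and Ogdhl, related to a TCA cycle enzyme (0.20). Nearest to Igf1r were Msantd4 (0.11) and the sialyltransferase gene St3gal1 (0.12). Nearest to Igfbp4 were the surface glycoprotein gene Cd24a and the intermediate filament gene Nes (both 0.19). Nearest to Igfbp7 were Plvap, which forms the diaphragms of fenestrated endothelium (0.15), and Dennd5a (0.22). Plvap measured 6.08 ± 0.78 (SD, n = 4) in the group labelled Gata6 KO and 7.48 ± 0.23 (SD, n = 3) on control arrays, and the vascular receptor gene Kdr measured 4.58 ± 0.30 (SD, n = 4) and 5.89 ± 0.33 (SD, n = 3). They are 2 of the 4 lower genes among the 12 endothelial markers, of which 2 others were higher and 6 were not called.

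**Figure D4:**
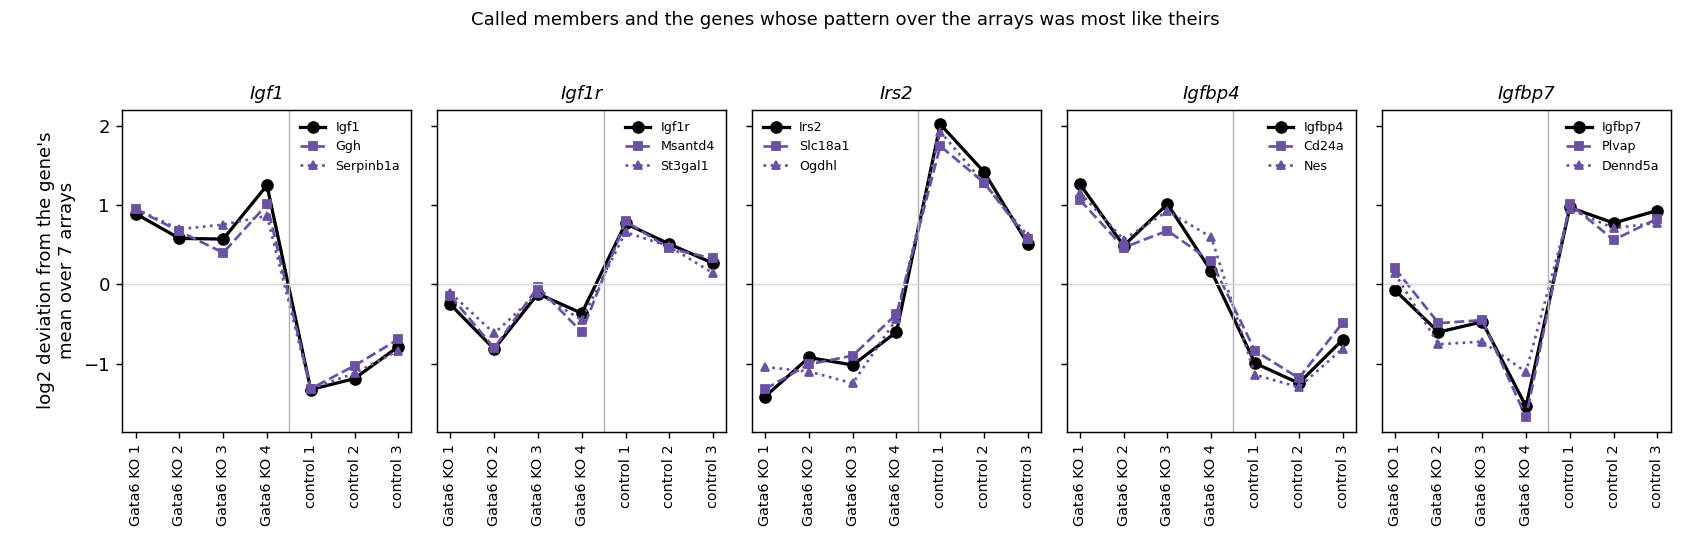
Log2 deviation from a gene's own mean over the 7 arrays (vertical axis) for the 5 called members (black) and the 2 genes with the most alike pattern (purple), arrays labelled Gata6 KO left of the grey line and control arrays right of it. Lines join the points of a gene and carry no order. The array labelled Gata6 KO 4 is the lowest for both Igfbp7 and Plvap.

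**Figure D5:**
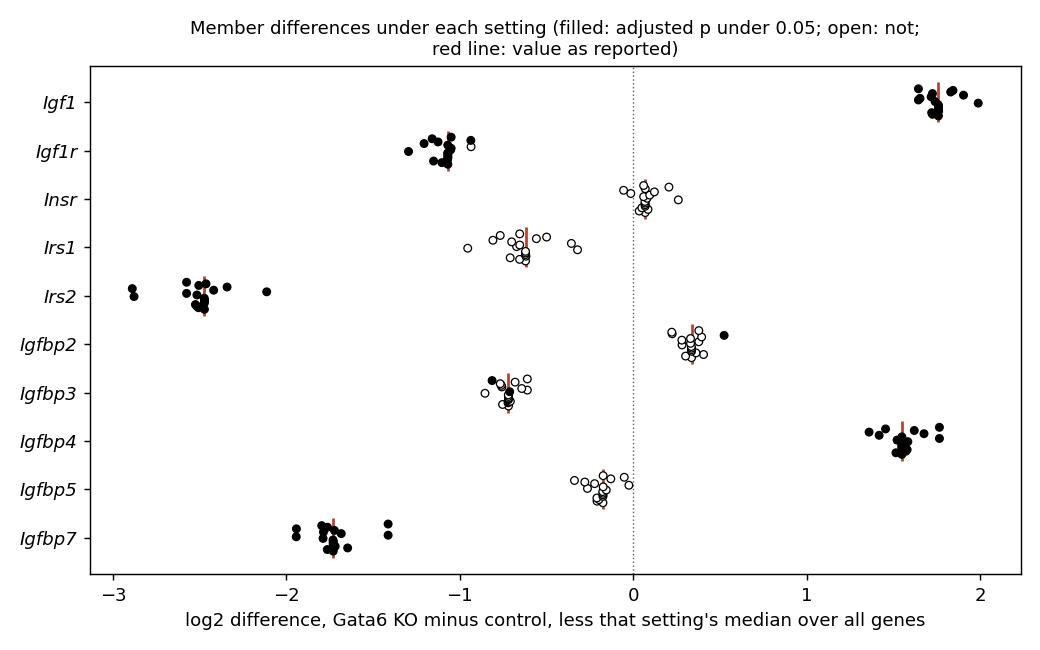
Change of each member under the settings tried (log2 difference, Gata6 KO minus control, less that setting's median over all genes, horizontal axis), with filled points for an adjusted p under 0.05, open points for a larger one, and a red line at the value as reported. Igf1, Irs2, Igfbp4 and Igfbp7 were called under every setting drawn, and Igf1r under all but 1.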

How the data were processed

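Islet RNA was measured on 7 arrays, 4 labelled Gata6 KO and 3 control. The deposited values are log2 signals per probe set, made by the authors with RMA and Transcriptome Analysis Console per the submitters' processing notes, and base 2 follows from RMA. RMA compresses differences at low signals. The genome build and any further step are not given in the sources used here. Of 41345 probe sets 23521 had 1 gene symbol in the platform annotation, which gave 22180 genes, with the brightest probe set taken for a gene. Differences (Gata6 KO minus control, no covariate) were fitted by lmFit and eBayes with trend (limma 3.58.1, R 4.3.3), two-sided, with Benjamini-Hochberg adjustment across the 22180 genes and a threshold of 0.05, after the script had been tested on simulated data. Exact permutation of group means over 35 assignments (smallest p = 0.0286) was run beside it. Alternatives covered scaling, a filter leaving out the lowest 40% of genes, probe sets, variance model, array weights, threshold, replicate block and each array left out; those on Xist were chosen after seeing the data. The members and lists were chosen with earlier results of these data known. Genes named were the members, Gata6, up to 4 genes of each list with the smallest p, the brightest markers and the 2 genes with the most alike pattern, of which those the account turns on are printed. Promoters are from RefSeq (GRCm38.p6). Figures were drawn with matplotlib 3.10.9.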

Additional observations from a re-analysis of the deposited data

Results flagged for a closer look

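Among the 4 arrays labelled Gata6 KO, an array stood far from the other 3 by Dixon's gap criterion in 7 of the 72 measures examined. The measures were the members, Gata6, named pathway and marker genes, and marker means. Chance alone gives about 1 in 20 for independent measures. These share the same arrays and some overlap in content, so the 7 are not read as an excess. None of the 10 members was among the 7. Gata6 was lowest on array 4, with a log2 signal of 5.009 against 5.341 for the next. Rgs5, a pericyte gene of the mesenchymal list, was lowest on array 4, with 3.56 against 5.689 for the next. Fabp4, a fatty acid binding protein gene of the adipocyte list, was lowest on array 4, with 2.43 against 5.803 for the next. Gcg, the glucagon gene, was lowest on array 3, with 6.852 against 10.314 for the next. The mean of the 4 alpha-cell markers, which includes Gcg, was lowest on array 3, with 5.23 against 6.359 for the next. Sos2, a guanine nucleotide exchange factor gene for Ras, was lowest on array 3, with 4.14 against 4.853 for the next. Bcl6, a repressor gene that FoxO factors induce, was highest on array 1, with 2.358 against 1.782 for the next.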

How the results depend on the processing

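Of 190 member values over 19 alternatives per member, 178 kept their direction and their side of the threshold. The number of members called was 5 with the replicate block (arrays 1 to 3 of each group), ranged from 4 to 6 with 1 array left out, and was 4 at an adjusted p under 0.01, where Igf1r (adjusted p = 0.0105) was lost. The adjusted p of the members called ranged from 2.04e-05 to 9.30e-04 for Igf1, from 4.23e-05 to 0.00193 for Irs2, from 6.27e-05 to 0.00514 for Igfbp4, from 9.73e-05 to 0.0116 for Igfbp7 and from 0.00346 to 0.0655 for Igf1r. By exact permutation these 5 reached the smallest p the design allows, 0.0286. Signs turned only for members near no change, before the shift was subtracted: Insr was -0.0109 after centring, and Igfbp5 was 0.022 on the arrays with high Xist and ranged from -0.16 to 0.13 with 1 array left out. All genes called numbered 5486 as reported, 2797 at an adjusted p under 0.01, 3337 on the arrays with high Xist, and 3265 to 5613 with 1 array left out, the lowest without control array 1, followed by 3586 without control array 2. Same-numbered arrays of the groups correlated at 0.102, 0.001 and 0.13 in their deviations, so the numbers were not taken as pairs. The Gata6 adjusted p ranged from 0.0312 to 0.39 and passed under 5 alternatives. With 1 array left out, the adaptor, PI3 kinase, Akt and mTOR list had 2 to 6 genes higher and 2 to 5 lower, and after a repeated quantile normalization 2 higher and 7 lower. The growth hormone list had 1 to 2 higher and 1 to 2 lower, and the FoxO list 1 to 2 higher and 1 to 3 lower. Brightest markers that were not called also changed sign: Ctrb1 was -0.1926 after centring and -0.0217 after repeated quantile normalization, Cela1 was -0.2209 and -0.2287 under these scalings, -0.0045 with the replicate block and -0.0164 to 0.0656 with 1 array left out, C1qb was 0.203 with the block and -0.7072 to 0.203 with 1 array left out, Plin1 was 0.0125 on the arrays with high Xist and -0.2295 to 0.0516 with 1 array left out, and Gfap was -0.0043 after repeated quantile normalization. Among pathway genes the calls of Jak2 and Map2k1 were lost without most single arrays and are not described, and on the arrays with high Xist Igfbp6 (adjusted p = 0.0515), Cblb (0.052), Pdk4 (0.0585) and Rheb (0.0863) missed the threshold, as Rheb did without control array 3 (0.0511). Low signals (Irs1, Igfbp5, Irs2 on the arrays labelled Gata6 KO) limit what sizes can be read.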
